A study of Mus musculus with 40 samples.

Results

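Toll-like receptors and the proteins they work with were followed in cultured mouse cardiac fibroblasts, as 10 genes taken by name from a table of 55414 genes: the receptors Tlr1, Tlr2, Tlr3, Tlr4, Tlr5 and Tlr6, the co-receptors Cd14 and Ly96, and the adaptors Myd88 and Ticam1. All 10 passed the filter on low counts, which kept 25210 genes. The fibroblasts came from adult TAK1fl/fl mice (C57BL/6J) and carried loxP sites around part of Map3k7, the gene for the kinase TAK1, in all groups. At passage 1 they were transduced with an adenovirus that drives LacZ or the recombinase iCre from a CMV promoter, which is not specific to a cell type. The ligand, given for 24 h once serum had been withdrawn, was none (CTRL), bFGF at 20 ng/ml, TGFβ at 10 ng/ml, IL-1β at 15 ng/ml or TNFα at 10 ng/ml. Before starvation all cells had been grown with bFGF. The 10 groups of virus by ligand held 4 libraries each, 40 in all. No group went without virus.

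Toll-like receptors recognise microbial molecules and molecules released by damaged cells. TLR2 pairs with TLR1 or TLR6 to bind lipopeptides, TLR4 binds lipopolysaccharide together with MD-2 (the product of Ly96) after CD14 has handed it over, TLR5 binds flagellin, and TLR3 binds double-stranded RNA inside endosomes. MyD88 carries the signal of every one of these receptors except TLR3, which uses TRIF (the product of Ticam1), and TLR4 uses both adaptors. TAK1 lies downstream of both adaptors and also of the receptors for IL-1β and TNFα. The study asked how TAK1 shapes the inflammatory state of cardiac fibroblasts, and the comparisons below ask what each ligand did to the mRNA of the sensing genes with and without the deletion.

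Promoter sequence is shown because 4 of the 10 genes (Tlr2, Tlr3, Tlr4 and Myd88) rose with both IL-1β and TNFα in LacZ in the results that follow. RefSeq promoters of 300 bases (250 before to 50 after the start, GRCm38.p6) were matched by symbol for 7 of the 10 genes (not Tlr4, Ly96 and Cd14), with 2 entries each for Tlr1 and Tlr6. Each was searched on both strands for the NF-κB consensus of 10 letters, for the AP-1 site TGANTCA and for the core of the interferon response element, which is GAAA, any 2 letters and GAAA again. The NF-κB consensus was in 8.46% of all 32851 promoters, the AP-1 site in 7.81% and the interferon core in 3.44%. Each match is printed within 30 bases, with the match in capitals and positions relative to the RefSeq start, and overlapping matches are merged.
Tlr2, NF-κB match at -173 to -163, chr3:83841762-83841791, minus strand: taggacacctGGGGAATTCCCacacggagc
Tlr2, NF-κB match at -8 to 2, chr3:83841597-83841626, minus strand: ccctgacctgGGGACATCCCcttccctcac
Tlr3, NF-κB match at -211 to -202, chr8:45410572-45410601, minus strand: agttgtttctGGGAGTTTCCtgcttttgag
Tlr6, interferon core matches at -116 to -101, chr5:64959260-64959289, minus strand: ctattctTTTCTCTTTCACTTTCtgtttga
Myd88, interferon core match at -40 to -31, chr9:119340039-119340068, minus strand: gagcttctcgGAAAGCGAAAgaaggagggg
Tlr2 held 2 NF-κB matches and Tlr3 held 1, the window of Myd88 held 0, and no match of the AP-1 site was in any of these windows. Of the 2 entries of Tlr6, that at 64959117-64959416 held the interferon core and that at 64959999-64960298 did not. A match is a run of letters and was not tested as a binding site.

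The libraries held from 25360947 to 66160732 gene counts, and levels are given as CPM, counts scaled to a common library size with TMM factors. Map3k7 counts include all exons, and its mRNA in iCre fibroblasts was at 127 ± 4.27 CPM in CTRL against 153 ± 6.51 CPM in LacZ (SD, n = 4), which gave a log2 fold change of -0.28 with a standard error (SE) of 0.07 and an adjusted p of 0.137. Blocking on the replicate number took that p to 0.00393, and with TGFβ, IL-1β and TNFα Map3k7 was called lower in iCre without the block (-0.67, -0.82 and -0.71). With bFGF it was not called (-0.40, adjusted p = 0.351; with the block 0.000409). In LacZ Map3k7 was called higher than CTRL with each ligand, at means of 199 to 239 CPM, while means in iCre were 126 to 150 CPM. By immunoblot the study reports a truncated TAK1 after iCre, which was gone after longer culture. All 9 fibroblast markers were present, with group medians of their summed level between 17000 and 55800 CPM. The 11 macrophage and leukocyte markers summed to medians between 41.7 and 107 CPM, with none at 0 and Lyz2 the most abundant. The cardiomyocyte marker Myh6 had at most 1 read in any library, while Tnnt2 reached 110 CPM. The median macrophage sum was lower in iCre than in LacZ under each of the 5 conditions, for example 63.4 against 106 CPM in CTRL and 83.0 against 88.0 CPM with TNFα. Taken one by one, 0 of the 11 markers were called lower in iCre under any condition, and 1 was called higher with TNFα (14.8% of all genes called higher). The fibroblast sum was lower in iCre in CTRL (25900 against 39900 CPM), with bFGF (20000 against 24900), IL-1β (25000 against 47400) and TNFα (17000 against 31100), but not with TGFβ (55800 against 55600). The summed pericyte markers Rgs5 and Cspg4 were higher in iCre under all 5, for example 811 against 370 CPM in CTRL and 875 against 196 CPM with TNFα. In CTRL the ranges of the 4 libraries overlapped between the viruses for the macrophage, fibroblast and pericyte sums. In CTRL and with bFGF 0 fibroblast and 0 pericyte markers were called between the viruses (0.0754% and 0.0% of all genes). With TNFα 2 fibroblast markers were called higher in iCre and 5 lower (14.8% and 12.6% of all genes), and 2 pericyte markers higher. With IL-1β 3 fibroblast markers were called lower (8.98%) and 1 pericyte marker higher (7.14%), and with TGFβ 1 (5.87%) and 1 (2.51%). The part of these sums in the differences between the viruses was not tested. Libraries of iCre fibroblasts with TGFβ, IL-1β or TNFα stood apart in how level related to GC content. Their log2 level, relative to the mean of each gene over the 40 libraries, rose by 0.207 to 0.336 per 10 percentage points of GC, whereas this slope lay between -0.247 and -0.006 in the 28 other libraries. A fit with a GC offset is therefore given beside results of those groups whose call it changed, alone or together with the replicate block. Replicate 1 of each group has library numbers 31 to 40 and the others 51 to 80, so that a value without replicate 1 is a value within the second range.

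Unstimulated LacZ fibroblasts expressed all 10 genes at unequal levels. Per kb of exon, Myd88 (16.5 ± 0.866) and Ticam1 (10.9 ± 0.998) were the most abundant, followed by Tlr4 (7.06 ± 1.26), Ly96 (6.15 ± 0.871), Tlr3 (4.08 ± 1.47), Tlr2 (4.04 ± 0.461) and Cd14 (3.48 ± 1.43 CPM per kb; SD, n = 4). Tlr6 at 0.945 ± 0.109 CPM per kb, Tlr1 at 0.433 ± 0.152 and Tlr5 at 0.171 ± 0.0679 were at the low end, and Tlr1 rested on 52 to 76 reads per library. Among these neighbours, Tlr4 with Ly96 and Tlr3, Tlr2 and Cd14 with each other had means closer than the larger of their SDs.

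**Figure D1:**
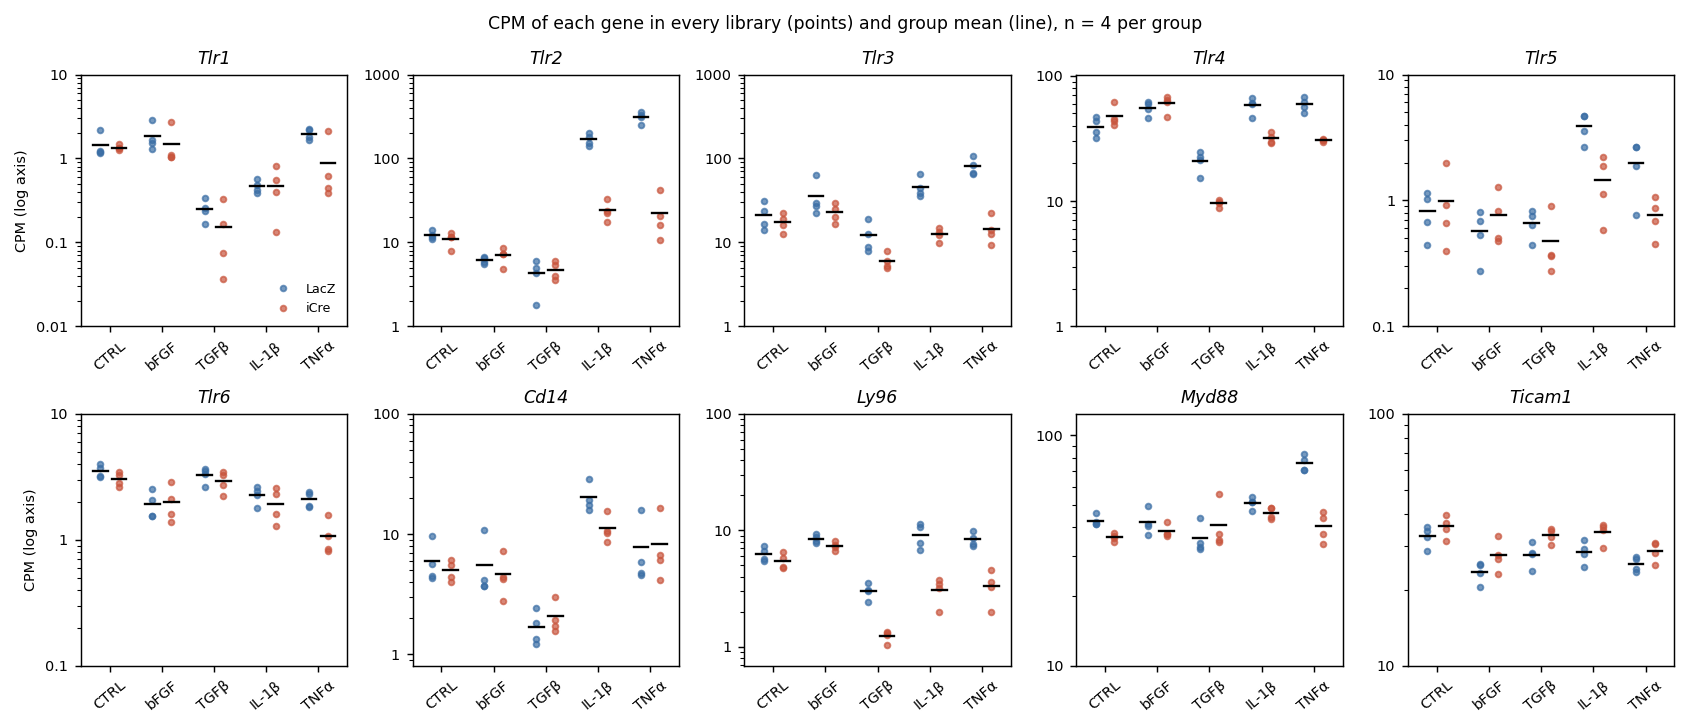
CPM on a log axis of each of the 10 genes in LacZ (blue) and iCre (red) fibroblasts for the 5 ligand conditions; points are the 4 libraries of a group and lines are group means. Tlr2 stands between 141 and 362 CPM in the LacZ libraries with IL-1β or TNFα and between 1.79 and 42.0 CPM in every other library.

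In LacZ fibroblasts the inflammatory cytokines raised between 4 and 6 of these genes, TGFβ lowered 5 and bFGF moved 4. With IL-1β, 6 of the 10 genes were called higher (Tlr2, Tlr3, Tlr4, Tlr5, Cd14, Myd88) and 2 lower (Tlr1, Tlr6), against 20.7% of all genes called in either direction, 11.1% higher and 9.55% lower. With raw library sizes 4 were called higher and 3 lower, beside 1435 and 4461 of all 25210 genes. With TNFα, 4 were called higher (Tlr2, Tlr3, Tlr4, Myd88) and 2 lower (Tlr6, Ticam1), against 21.3% of all genes, 10.9% higher and 10.4% lower. With TGFβ, 5 were called lower (Tlr1, Tlr2, Tlr4, Cd14, Ly96) and none higher, against 36.9% of all genes called and 19.3% called lower. Of the 11 macrophage and leukocyte markers 2 were called lower with TGFβ too, with a median log2 fold change of -0.90 over the 11, and their part in these falls was not tested. With bFGF, Tlr4 was called higher and Tlr2, Tlr6 and Ticam1 lower, against 11.6% of all genes, 7.0% higher and 4.64% lower. Raw library sizes gave 0 and 3 there, beside 1306 and 1361 of all 25210 genes. The median log2 fold change over the 10 genes was 0.57 with IL-1β, 0.52 with TNFα, -0.85 with TGFβ and -0.04 with bFGF, beside -0.10, -0.08, -0.17 and -0.03 over all genes tested. These 4 comparisons share the LacZ CTRL libraries. Calls come from edgeR (quasi-likelihood), at 0.05 after Benjamini-Hochberg adjustment across every gene tested.

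In iCre fibroblasts 3 of the 10 genes were called higher with IL-1β, none with TNFα and none with TGFβ, which lowered 6. With IL-1β, Tlr2, Cd14 and Myd88 were called higher and Tlr1, Tlr4 and Ly96 lower than in iCre CTRL, against 16.3% of all genes called, 9.38% higher and 6.88% lower. Raw library sizes gave 2 higher and 4 lower, beside 1239 and 2434 of all 25210 genes. With TNFα, Tlr4 and Tlr6 were called lower, against 27.0% of all genes and 12.3% lower, and 0 of the 10 were called higher in edgeR, while Tlr2 had an unadjusted p under 0.05 and was called higher by DESeq2. With TGFβ, 6 were called lower (Tlr1, Tlr2, Tlr3, Tlr4, Cd14, Ly96), against 37.4% of all genes called and 18.8% called lower. There 2 of the 11 macrophage and leukocyte markers were called lower (median over the 11 -0.40), and their part was not tested. With bFGF none of the 10 passed in edgeR, against 2.42% of all genes, while 4 had an unadjusted p under 0.05 and DESeq2 called 3. Of all 25210 genes, 4213 had an unadjusted p under 0.05 there, and DESeq2 called 1138 higher and 860 lower. With the replicate block 6 of the 10 passed with bFGF (Tlr3, Tlr4 and Ly96 higher, Tlr2, Tlr6 and Ticam1 lower; 16.7% of all genes) and 5 with TNFα (Tlr2 higher, Tlr4, Tlr6, Ly96 and Ticam1 lower; 36.1% of all genes). Under the GC offset 2 of the 6 calls with IL-1β were left (Tlr2 and Cd14), against 9.69% of all genes.

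**Figure D2:**
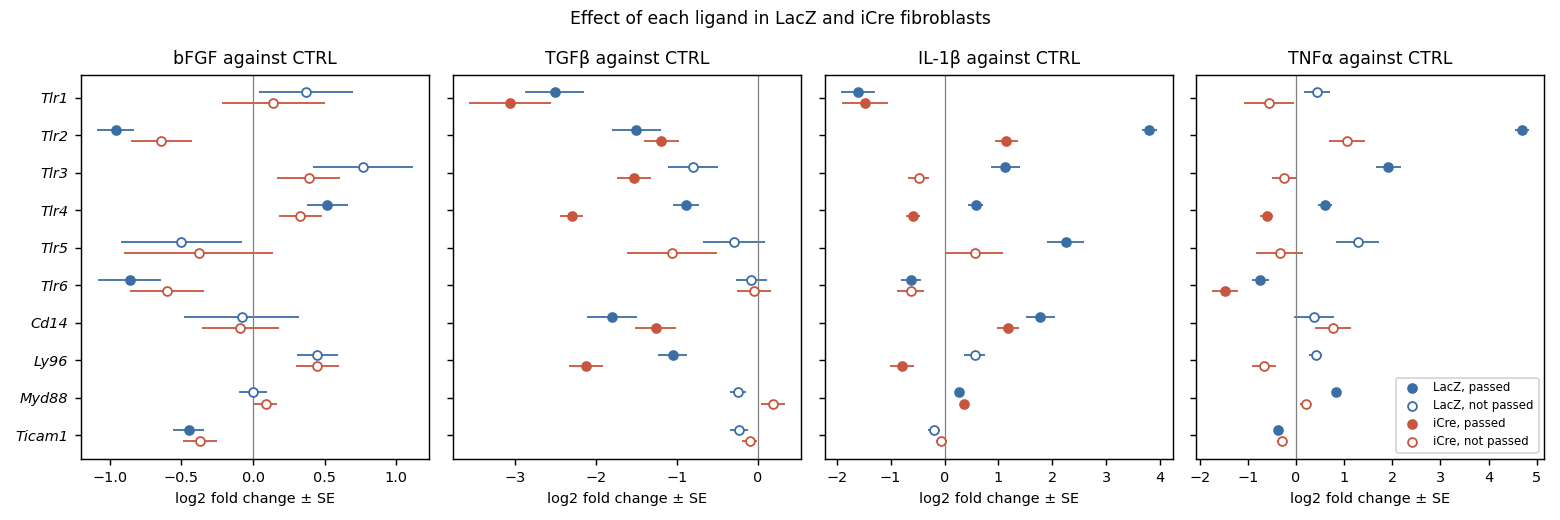
Log2 fold change against CTRL of the same virus, with its SE, for the 10 genes and 4 ligands in LacZ (blue) and iCre (red) fibroblasts (n = 4 per group); filled points passed the adjusted threshold and each panel has its own axis. The widest gaps between the viruses are those of Tlr2, 3.80 against 1.15 with IL-1β and 4.69 against 1.06 with TNFα.

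Setting iCre directly beside LacZ under the same ligand, none of the 10 genes differed by the test in CTRL or with bFGF, and every call with the other ligands was lower in iCre. In CTRL, 0 of the 10 passed in edgeR (0.0754% of all genes), 1 had an unadjusted p under 0.05 and DESeq2 called 1. Of all 25210 genes, 3538 had an unadjusted p under 0.05 there, and DESeq2 called 751 higher and 595 lower. With bFGF, 0 passed (0.0% of all genes), and the counts at an unadjusted p under 0.05 and by DESeq2 were 0 too. Over all genes these were 2585 at the unadjusted p, and 259 higher and 222 lower by DESeq2. With TGFβ 3 were called lower (Tlr3, Tlr4, Ly96; 5.87% of all genes called lower), with IL-1β 6 (Tlr2, Tlr3, Tlr4, Tlr5, Cd14, Ly96; 8.98%) and with TNFα 7 (Tlr2, Tlr3, Tlr4, Tlr5, Tlr6, Ly96, Myd88; 12.6%). The shares from here on in this paragraph count both directions, which without offset or block were 8.37%, 16.1% and 27.3% with TGFβ, IL-1β and TNFα. The GC offset left 0 with TGFβ (1.29% of all genes), 5 with IL-1β (Tlr2, Tlr3, Cd14, Ly96 and, newly, Myd88; 9.48%) and 6 with TNFα (all but Tlr6; 21.8%). With the replicate block and the GC offset together, 2 passed with TGFβ (Tlr4, Ly96; 8.47%), 7 with IL-1β (the 6 above and Myd88; 22.7%) and 8 with TNFα (the 7 above and Tlr1; 27.7%). With the replicate block, Tlr4 was called higher (0.28, adjusted p = 0.0346) and Myd88 lower (-0.25, adjusted p = 0.0213) in CTRL, where 14.5% of all genes passed, and Tlr3 was called lower with bFGF (-0.56, adjusted p = 0.0026), where 13.9% passed.

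The lipopeptide receptor gene Tlr2 (chr3:83836272-83841767, ENSMUSG00000027995) had the widest range of the 10. In LacZ CTRL it stood at 12.1, 10.9, 11.6 and 14.1 CPM in replicates 1 to 4. With IL-1β the LacZ libraries held 153, 141, 181 and 200 CPM, and with TNFα 362, 253, 330 and 315 CPM. Neither range touched that of CTRL or that of the other cytokine. The rise was 13.9-fold with IL-1β (log2 fold change 3.80, SE 0.14, adjusted p = 4.43e-07) and 25.9-fold with TNFα (4.69, SE 0.14, adjusted p = 2.39e-07), and it was lower with IL-1β than with TNFα by a log2 fold change of -0.90 (SE 0.14, adjusted p = 0.00249). The other ligands went the other way: bFGF libraries held 5.6 to 6.7 CPM (-0.96, adjusted p = 0.00274) and TGFβ libraries 1.79 to 6.06 CPM (-1.50, SE 0.30, adjusted p = 0.0026), all below the lowest CTRL library. Without replicate 3 the bFGF call was lost (adjusted p = 0.0521).

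In iCre fibroblasts Tlr2 was at 11.6, 7.83, 11.7 and 12.8 CPM in CTRL, which overlapped LacZ CTRL. With IL-1β it was at 32.5, 17.5, 24.0 and 22.3 CPM, a 2.22-fold rise (1.15, SE 0.21, adjusted p = 0.00485). With TNFα it was at 42.0, 10.7, 20.7 and 16.2 CPM (1.06, SE 0.37, adjusted p = 0.059). This last group overlapped CTRL, although each library was above the CTRL library of the same number, and with the replicate block the change passed (0.90, adjusted p = 0.00881). Its highest library, replicate 1, also held the highest macrophage marker sum of that group, 135 CPM, and replicate 4 held 125 CPM with a Tlr2 level of 16.2. In these bulk libraries fewer cells of a type and less RNA per cell cannot be told apart. Without replicate 1 the fold change with TNFα was 0.59 (adjusted p = 0.166). Set against LacZ, Tlr2 in iCre was 7.06-fold lower with IL-1β (-2.82, SE 0.19, adjusted p = 3.1e-05) and 13.8-fold lower with TNFα (-3.79, SE 0.39, adjusted p = 0.000204). The interaction, which tests whether the ligand effect differed between the viruses, was -2.66 (SE 0.26, adjusted p = 1.53e-05) for IL-1β and -3.64 (SE 0.43, adjusted p = 5.67e-05) for TNFα. TGFβ lowered Tlr2 to 3.59 to 6.06 CPM in iCre (-1.19, adjusted p = 0.00141), and the interactions with TGFβ (0.28, SE 0.39) and bFGF (0.33, SE 0.25) did not pass.

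Tlr1 and Tlr6, whose products pair with TLR2, are neighbours on chromosome 5 (64924679-64933563 and 64952031-64960097). Neither was called higher in LacZ with IL-1β or TNFα, as Tlr2 was. With TGFβ Tlr1 fell as Tlr2 did in LacZ and iCre, and with bFGF Tlr6 fell as Tlr2 did in LacZ. Tlr1 in LacZ was at 1.16, 1.19, 1.24 and 2.21 CPM in CTRL, at 0.166 to 0.341 CPM with TGFβ (-2.51, SE 0.36, adjusted p = 0.000353) and at 0.392 to 0.563 CPM with IL-1β (-1.61, SE 0.32, adjusted p = 0.00549). With TNFα it was at 1.64 to 2.24 CPM, not called against CTRL (0.44, adjusted p = 0.293) but apart from IL-1β, which was lower by a log2 fold change of -2.06 (SE 0.26, adjusted p = 0.000704). So the cytokines that both raised Tlr2 left Tlr1 at unequal levels. In iCre, Tlr1 fell with TGFβ to 0.037 to 0.331 CPM, on 1 to 10 reads a library (-3.06, SE 0.51, adjusted p = 0.000763), and with IL-1β to 0.134 to 0.804 CPM (-1.47, SE 0.43, adjusted p = 0.0435), a call that was lost without any of the 4 replicate numbers (adjusted p between 0.0603 and 0.155) and with the GC offset (0.0753; with block and offset -1.49, adjusted p = 0.000766). With TNFα, iCre libraries held 2.11, 0.619, 0.448 and 0.389 CPM, with replicate 1 apart from the others, and iCre against LacZ gave -1.10 (adjusted p = 0.151). The replicate block gave -1.40 (adjusted p = 0.0223) and leaving out replicate 1 gave -1.92 (adjusted p = 0.00307).

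In LacZ fibroblasts Tlr6 fell with each ligand except TGFβ. It was at 3.14 to 4.0 CPM in CTRL, 1.53 to 2.51 CPM with bFGF (-0.86, adjusted p = 0.0346), 1.78 to 2.62 CPM with IL-1β (-0.62, adjusted p = 0.0451) and 1.82 to 2.40 CPM with TNFα (-0.74, adjusted p = 0.0167). Each of these ranges was below CTRL, but each of the 3 calls was lost without replicate 1, 3 or 4 (adjusted p between 0.0601 and 0.199), and the IL-1β call without the filter on low counts (0.0544). In iCre, Tlr6 was at 2.64 to 3.45 CPM in CTRL and at 1.58, 0.809, 0.837 and 1.07 CPM with TNFα (-1.47, SE 0.27, adjusted p = 0.00285), the lowest mean of the 10 groups, though its range met that of LacZ with bFGF. With IL-1β in iCre it was at 1.28 to 2.56 CPM (-0.63, adjusted p = 0.128; with the block -0.66, adjusted p = 0.00185). Against LacZ with TNFα it was lower by -0.95 (SE 0.28, adjusted p = 0.0321), a call that was lost without replicate 2, 3 or 4 (adjusted p between 0.0638 and 0.216) and fell just above the threshold with the GC offset (-0.89). The interaction with TNFα was -0.74 (adjusted p = 0.117), and passed with the replicate block (-0.77, adjusted p = 0.0321) but not with block and offset together (-0.74, adjusted p = 0.0542).

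**Figure D3:**
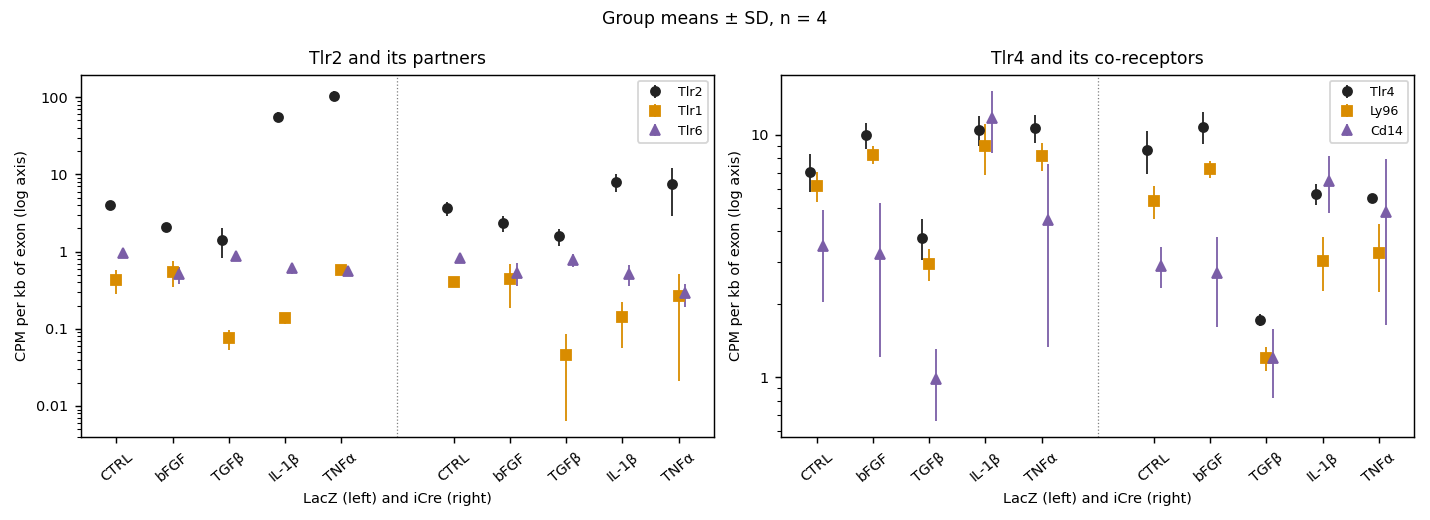
CPM per kb of exon on a log axis, as group means with SD (n = 4), of Tlr2 with Tlr1 and Tlr6 (left panel) and of Tlr4 with Ly96 and Cd14 (right panel) in the 5 LacZ groups and then the 5 iCre groups. Tlr2 reaches 105 CPM per kb with TNFα in LacZ while Tlr1 and Tlr6 stay under 1, and Tlr4 and Ly96 keep the same order in all 10 groups.

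Per kb of exon, Tlr2 in LacZ went from 4.04 in CTRL to 56.0 with IL-1β and 105 with TNFα, whereas Tlr1 was at 0.139 and 0.584 and Tlr6 at 0.608 and 0.562 in those groups. The difference between the receptor and its partners was thus widest with the cytokines. These counts give mRNA only and say nothing of the protein pairs.

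The lipopolysaccharide receptor gene Tlr4 (chr4:66827584-66930284) and Ly96 (chr1:16688051-16709611), which encodes the co-receptor MD-2, varied together. Over the 10 group means of log2 CPM their Pearson r was 0.96 (n = 10 groups), a description in which both genes share libraries and a low GC content (39.4% and 41.1%). Tlr4 in LacZ CTRL was at 46.8, 43.3, 35.3 and 31.6 CPM. It was at 46.4 to 66.5 CPM with IL-1β (0.58, SE 0.14, adjusted p = 0.0164), 50.0 to 68.2 CPM with TNFα (0.60, SE 0.14, adjusted p = 0.0131) and 46.3 to 61.7 CPM with bFGF (0.52, SE 0.14, adjusted p = 0.0393). These were rises of 1.5-fold, 1.51-fold and 1.43-fold, and the IL-1β and bFGF ranges overlapped CTRL. All were lost without replicate 3 or 4 (adjusted p between 0.0831 and 0.277), the bFGF call without replicate 1 too (0.0672), and the IL-1β call with raw library sizes (0.35, adjusted p = 0.07). The bFGF call also fell just above the threshold with raw library sizes (0.45) and with the GC offset (0.47). TGFβ lowered Tlr4 to 15.3 to 24.7 CPM, below every CTRL library (-0.89, SE 0.16, adjusted p = 0.00174).

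In iCre fibroblasts Tlr4 started at 45.5, 62.3, 43.5 and 40.8 CPM and went down with 3 ligands. It was at 9.62, 8.88, 9.77 and 10.2 CPM with TGFβ, a 4.93-fold fall (-2.30, SE 0.14, adjusted p = 1.43e-06). With IL-1β it was at 29.0 to 35.9 CPM (-0.58, adjusted p = 0.0155) and with TNFα at 29.4 to 31.4 CPM (-0.61, adjusted p = 0.00613), all below the lowest CTRL library. With the GC offset the TGFβ fall was -1.85 (adjusted p = 4.58e-06), whereas the values for IL-1β and TNFα were -0.10 (adjusted p = 0.686) and -0.12 (adjusted p = 0.527). Leaving out replicate 1 or 3 also took away the IL-1β call (adjusted p = 0.0869 and 0.0744). Against LacZ, Tlr4 was lower by -1.15 with TGFβ (adjusted p = 0.0011), -0.90 with IL-1β (adjusted p = 0.000951) and -0.93 with TNFα (adjusted p = 0.000281), with groups that did not overlap. With the GC offset these were -0.56 (adjusted p = 0.115), -0.36 (adjusted p = 0.0842) and -0.38 (adjusted p = 0.0216). The interactions were -1.44 for TGFβ (adjusted p = 0.000913), -1.18 for IL-1β (adjusted p = 0.00193) and -1.22 for TNFα (adjusted p = 0.000631), and with the GC offset -0.89 (adjusted p = 0.0581), -0.69 (adjusted p = 0.0625) and -0.73 (adjusted p = 0.0245). The interaction with IL-1β was lost without replicate 3 too (adjusted p = 0.0515). Tlr4 differences between the viruses were thus smaller with the offset. Together with the replicate block they passed with each of the 3 ligands, at -0.54 with TGFβ (adjusted p = 0.0052), -0.35 with IL-1β (0.0147) and -0.37 with TNFα (0.011), as did the interactions (adjusted p = 0.0353, 0.0148 and 0.00913).

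Ly96 in LacZ was at 5.45, 7.33, 5.64 and 6.68 CPM in CTRL. The cytokines and bFGF gave values that did not pass: 6.80 to 11.4 CPM with IL-1β (0.56, adjusted p = 0.0587), 7.30 to 9.85 CPM with TNFα (0.41, adjusted p = 0.0696) and 7.75 to 9.34 CPM with bFGF (0.45, adjusted p = 0.069). With the replicate block all 3 passed (adjusted p = 0.00159, 0.00789 and 0.0135). TGFβ lowered Ly96 to 2.42 to 3.50 CPM (-1.05, SE 0.18, adjusted p = 0.00109). In iCre it was at 4.71 to 6.47 CPM in CTRL, and TGFβ lowered it 4.35-fold to 1.03, 1.3, 1.27 and 1.33 CPM (-2.12, SE 0.21, adjusted p = 2.24e-05), the lowest of the 10 groups and apart from the next. IL-1β took it to 1.97 to 3.76 CPM (-0.79, adjusted p = 0.0363), a call that was lost without replicate 1, 3 or 4 (adjusted p between 0.091 and 0.142) and with the GC offset (-0.46, adjusted p = 0.211; with block and offset -0.48, adjusted p = 0.0137). TNFα libraries held 2.0 to 4.54 CPM (-0.67, adjusted p = 0.0738; with the block -0.72, adjusted p = 0.0072). The offset gave -0.35 there (adjusted p = 0.341; with the block -0.38, adjusted p = 0.109).

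Against LacZ, Ly96 in iCre was 3.0-fold lower with IL-1β (-1.59, SE 0.24, adjusted p = 0.00161), 2.47-fold lower with TNFα (-1.31, SE 0.24, adjusted p = 0.00298) and 2.48-fold lower with TGFβ (-1.31, SE 0.23, adjusted p = 0.00595). The offset gave values of -1.18 (adjusted p = 0.00847), -0.91 (adjusted p = 0.0198) and -0.86 (adjusted p = 0.108; with block and offset -0.85, adjusted p = 0.0274). The TGFβ call was lost without replicate 3 or 4 as well (adjusted p = 0.0787 and 0.0652). Interactions were -1.37 for IL-1β, -1.10 for TNFα and -1.10 for TGFβ (adjusted p = 0.00728, 0.0153 and 0.0141), and each was lost without replicate 1 or 4 (adjusted p between 0.0532 and 0.141), while those for TNFα and TGFβ were also lost without replicate 3 (0.0758 and 0.16) and with the GC offset (0.11 and 0.235; with block and offset 0.0164 and 0.119).

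**Figure D4:**
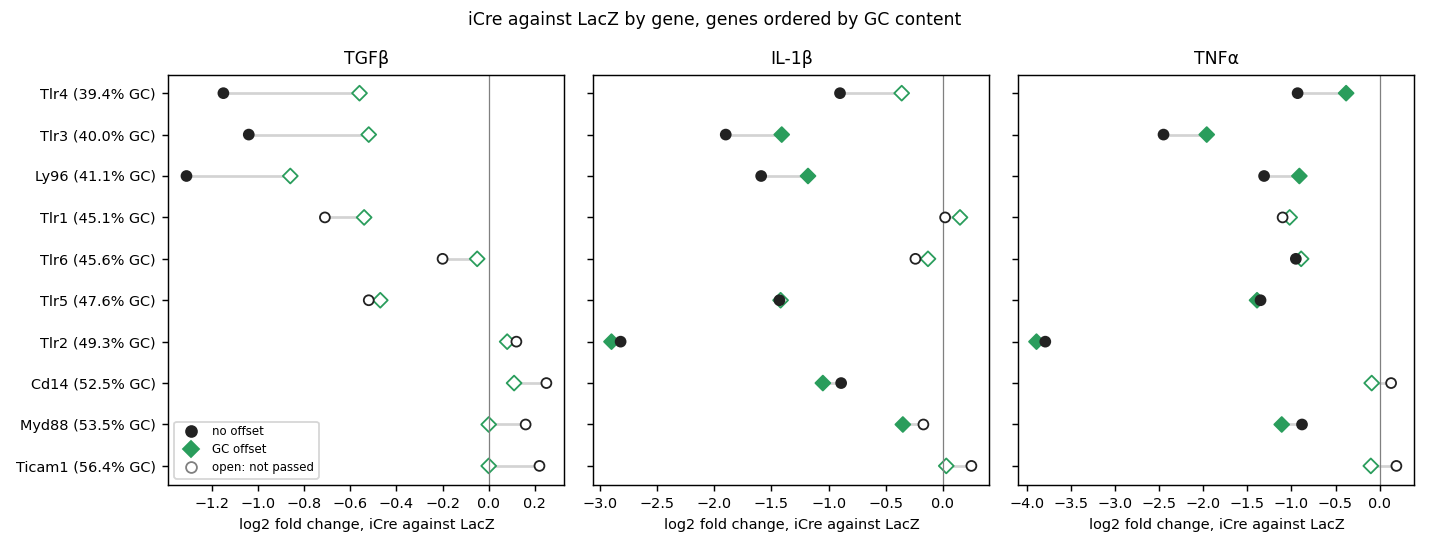
Log2 fold change of iCre against LacZ with TGFβ, IL-1β and TNFα for the 10 genes, ordered from low to high GC content, without (black circles) and with (green diamonds) the GC offset; open symbols did not pass and each panel has its own axis. The 3 genes of lowest GC content (Tlr4, Tlr3, Ly96) shift toward 0 with the offset in each panel, while Tlr2 moves from -2.82 to -2.90 with IL-1β and from -3.79 to -3.89 with TNFα.

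Cd14 (chr18:36725067-36726798), which passes lipopolysaccharide to MD-2 and TLR4, rose with IL-1β, and its value with TNFα did not pass. In LacZ it was at 5.67, 9.64, 4.49 and 4.30 CPM in CTRL, at 19.4, 29.0, 17.5 and 16 CPM with IL-1β and at 5.83, 15.8, 4.75 and 4.58 CPM with TNFα. The IL-1β group was above both of the others in every library, with a 3.45-fold rise over CTRL (1.78, SE 0.27, adjusted p = 0.00144), while TNFα gave 0.37 (SE 0.42, adjusted p = 0.59). The direct comparison of IL-1β with TNFα gave 1.41 (SE 0.38, adjusted p = 0.0443), and it was lost without replicate 1, 3 or 4 (adjusted p between 0.154 and 0.197) and with raw library sizes (0.0652). TGFβ lowered Cd14 to 1.21 to 2.45 CPM in LacZ (-1.80, SE 0.31, adjusted p = 0.00119) and to 1.58 to 3.03 CPM in iCre (-1.26, SE 0.25, adjusted p = 0.00271). The summed macrophage markers in LacZ went from 126, 61.0, 85.8 and 190 CPM in CTRL to 50.6, 28.1, 50.4 and 112 CPM with TGFβ, lower in each same-numbered library, and in iCre from 32.5 to 98.7 CPM to 19.5 to 73.1 CPM.

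In iCre, Cd14 still rose with IL-1β, from 3.99 to 6.08 CPM in CTRL to 10.2, 15.5, 10.6 and 8.53 CPM (1.18, SE 0.20, adjusted p = 0.00393), and these libraries were all below the LacZ libraries with IL-1β (-0.89, SE 0.22, adjusted p = 0.0193). That difference was lost without replicate 1 or 3 (adjusted p = 0.0904 and 0.0899), with raw library sizes (0.0567) and in the fit of all 40 libraries (0.13), and the interaction was -0.62 (SE 0.36, adjusted p = 0.374; with the block -0.68, adjusted p = 0.0211). Replicate 2 held the highest Cd14 in 9 of the 10 groups and the lowest summed macrophage markers in 9 of the 10, for example 29.0 CPM of Cd14 beside 56.6 CPM of summed markers in LacZ with IL-1β. CD14 is itself a marker of monocytes and macrophages. The summed macrophage markers ranged from 56.6 to 210 CPM in LacZ with IL-1β and from 61.0 to 190 CPM in LacZ CTRL.

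Tlr3 (chr8:45395665-45411080), the receptor for double-stranded RNA, rose with both cytokines in LacZ fibroblasts, and its values in iCre with them did not pass. In LacZ CTRL it was at 16.5, 14, 23.6 and 31.0 CPM, with IL-1β at 36.0, 38.7, 45.0 and 65.0 CPM (1.13, SE 0.27, adjusted p = 0.0137) and with TNFα at 65.0, 67.4, 82.6 and 107 CPM (1.92, SE 0.26, adjusted p = 0.000733). The cytokine groups lay above CTRL, and IL-1β was lower than TNFα by -0.80 (adjusted p = 0.0335), though the ranges met and the call was lost without replicate 1 or 3 (adjusted p = 0.0797 and 0.195) and in the fit of all 40 libraries (0.0981). The rise with IL-1β was lost without replicate 3 (1.20, adjusted p = 0.0693). Tlr3 with bFGF was at 22.3 to 64.1 CPM (0.77, adjusted p = 0.202) and with TGFβ at 7.84 to 19.1 CPM (-0.80, adjusted p = 0.0692), and with the replicate block both passed (adjusted p = 0.000391 and 9.67e-05).

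In iCre, Tlr3 was at 12.6 to 22.5 CPM in CTRL, 9.76 to 14.7 CPM with IL-1β (-0.48, adjusted p = 0.128) and 9.35 to 22.2 CPM with TNFα (-0.24, adjusted p = 0.538). With the replicate block the IL-1β value passed as a fall (-0.46, adjusted p = 1.51e-05), and with the GC offset it was -0.04 (adjusted p = 0.936; with block and offset -0.03, adjusted p = 0.907). TGFβ lowered Tlr3 to 4.93 to 7.80 CPM (-1.53, SE 0.21, adjusted p = 0.000201). Against LacZ, Tlr3 was 3.73-fold lower with IL-1β (-1.90, SE 0.20, adjusted p = 0.000227) and 5.45-fold lower with TNFα (-2.45, SE 0.27, adjusted p = 0.000257), and with the GC offset -1.41 (adjusted p = 0.00238) and -1.96 (adjusted p = 0.000962). The difference with TGFβ (-1.04, adjusted p = 0.0477) was lost without replicate 1, 3 or 4 (adjusted p between 0.0725 and 0.287), with raw library sizes (0.0608) and with the GC offset (-0.52, adjusted p = 0.521; with block and offset -0.45, adjusted p = 0.0917). The interaction with TGFβ was -0.75 (adjusted p = 0.419; with the block -0.74, adjusted p = 0.0276, and with block and offset -0.25, adjusted p = 0.645). The interaction was -2.17 for TNFα (adjusted p = 0.00152) and -1.62 for IL-1β (adjusted p = 0.00863), the latter lost without replicate 1 or 3 (adjusted p = 0.0568 and 0.105) and with the GC offset (-1.17, adjusted p = 0.0837; with block and offset -1.18, adjusted p = 0.000138). Tlr3 shares 381 exon bases with the antisense gene Gm45542, and the strand setting of the counting is not given in the sources used here.

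The flagellin receptor gene Tlr5 (chr1:182954788-182976044) was the least abundant per kb in LacZ CTRL. It was at 0.670, 0.439, 1.15 and 1.02 CPM in LacZ CTRL and at 4.70, 2.66, 4.66 and 3.59 CPM with IL-1β, a 4.76-fold rise with no overlap (2.25, SE 0.34, adjusted p = 0.00128). With TNFα it was at 2.65, 0.769, 2.68 and 1.89 CPM (1.28, SE 0.44, adjusted p = 0.0645; with the block 1.26, adjusted p = 0.000267). Between IL-1β and TNFα the difference was 0.96 (adjusted p = 0.143; with the block 1.02, adjusted p = 2.16e-05). In iCre it was at 0.398 to 1.99 CPM in CTRL, 0.582 to 2.23 CPM with IL-1β (0.56, adjusted p = 0.546; with the block 0.62, adjusted p = 0.0455, and with block and offset 0.57, adjusted p = 0.0839), 0.277 to 0.899 CPM with TGFβ (-1.06, adjusted p = 0.166; with the block -0.98, adjusted p = 0.0436) and 0.452 to 1.07 CPM with TNFα (-0.34, adjusted p = 0.652). Against LacZ, the values were -1.43 with IL-1β (SE 0.39, adjusted p = 0.0323) and -1.35 with TNFα (SE 0.43, adjusted p = 0.0398). Both were lost without replicate 1, 3 or 4 (adjusted p between 0.0743 and 0.183). The IL-1β call was also lost with the GC offset, at a like value (-1.42, adjusted p = 0.0538; with block and offset 1.7e-05). The interactions were -1.72 and -1.64 (adjusted p = 0.154 and 0.131), and with the replicate block they passed (adjusted p = 0.00217 and 0.0111).

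Of the adaptors, Myd88 (chr9:119335934-119341411) rose with both cytokines in LacZ, and Ticam1 (chr17:56269319-56276786) fell with TNFα. Myd88 in LacZ was at 41.4, 45.9, 41.1 and 41.9 CPM in CTRL, at 51.6, 54.2, 47.1 and 51.4 CPM with IL-1β and at 78.2, 82.8, 70.5 and 70.9 CPM with TNFα. The 3 groups did not overlap. The rise was 1.78-fold with TNFα (0.83, SE 0.07, adjusted p = 7.56e-05) and 1.21-fold with IL-1β (0.27, SE 0.07, adjusted p = 0.0256), and IL-1β was lower than TNFα by -0.57 (SE 0.08, adjusted p = 0.00129). The IL-1β call was lost without replicate 1, 3 or 4 (adjusted p between 0.074 and 0.152), with raw library sizes (0.05, adjusted p = 0.74) and in the fit of all 40 libraries (0.108). With TGFβ the value was -0.24 (adjusted p = 0.108; with the block -0.25, adjusted p = 0.0371, and with the GC offset -0.29, adjusted p = 0.0464). In iCre, IL-1β libraries held 43.2 to 48.2 CPM against 34.6 to 37.6 CPM in CTRL (0.36, SE 0.08, adjusted p = 0.0096; 0.16 with the GC offset, adjusted p = 0.21, 0.23 with raw library sizes, adjusted p = 0.0968, and lost without replicate 1 or 3, adjusted p = 0.0883 and 0.0526), and TNFα libraries held 33.9 to 46.7 CPM (0.20, adjusted p = 0.224).

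Myd88 was 1.84-fold lower in iCre than in LacZ with TNFα (-0.88, SE 0.12, adjusted p = 0.00058; -1.11 with the GC offset), with an interaction of -0.64 (SE 0.13, adjusted p = 0.00311). With IL-1β the difference between the viruses was -0.17 (SE 0.08, adjusted p = 0.192; -0.35 with the GC offset, adjusted p = 0.0148), and the interaction was 0.08 (SE 0.09, adjusted p = 0.724). Replicate 2 had the highest Myd88 of its group in both TGFβ groups, at 43.8 CPM (LacZ) and 55.7 CPM (iCre) beside 32.2 to 37.2 CPM in the 6 other libraries. Myd88 shares 290 exon bases with Acaa1a on the opposite strand.

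Ticam1 stayed within 20.6 and 39.8 CPM in all 40 libraries. In LacZ it was at 28.6 to 35.4 CPM in CTRL, 20.6 to 25.3 CPM with bFGF (-0.45, SE 0.11, adjusted p = 0.0241) and 23.5 to 27.0 CPM with TNFα (-0.37, SE 0.09, adjusted p = 0.0187). Both falls were lost without replicate 1, 3 or 4 (adjusted p between 0.0885 and 0.137). IL-1β gave -0.20 (SE 0.11) and TGFβ -0.23 (SE 0.11) without passing. The IL-1β value passed with the replicate block and GC offset together (-0.24, adjusted p = 0.0303) and with raw library sizes (-0.41, adjusted p = 0.0273), and the TGFβ value with raw library sizes (-0.63, adjusted p = 0.00122) and without replicate 2 (-0.36, adjusted p = 0.0133). Differences between iCre and LacZ lay between 0.12 and 0.25 under the 5 conditions and did not pass, with SEs of 0.10 to 0.13. The GC offset took the TGFβ value to 0.0, that of IL-1β to 0.03 and that of TNFα to -0.10. In iCre it was at 31.4 to 39.8 CPM in CTRL, 23.1 to 32.7 CPM with bFGF (-0.37, adjusted p = 0.14; with the block -0.38, adjusted p = 0.0131) and 25 to 30.6 CPM with TNFα (-0.29, adjusted p = 0.0633; with the block -0.29, adjusted p = 0.0268). The GC offset moved the TNFα value to a called fall of -0.54 (adjusted p = 0.00399; with the block 0.00136) and the TGFβ value from -0.10 (adjusted p = 0.426) to -0.33 (adjusted p = 0.0196). With IL-1β it moved the value from -0.06 to -0.29, which passed with the block (adjusted p = 0.0862 without and 0.002 with it).

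Interactions of virus and ligand passed for 5 of the 10 genes with TNFα (Tlr2, Tlr3, Tlr4, Ly96, Myd88; 7.7% of all genes called in that direction), 4 with IL-1β (Tlr2, Tlr3, Tlr4, Ly96; 4.95%), 2 with TGFβ (Tlr4, Ly96; 3.62%) and 0 with bFGF in edgeR, where the counts at an unadjusted p under 0.05 and by DESeq2 were also 0 and 0.0% of all genes passed. All were negative: the log2 fold change with the ligand lay further down in iCre than in LacZ. For TGFβ this was a larger fall in iCre, of -2.30 against -0.89 for Tlr4 and -2.12 against -1.05 for Ly96, and for Tlr4 with IL-1β it was -0.58 in iCre against 0.58 in LacZ. The shares with the offset, here and in the next sentences, count both directions. Without it those were 4.51%, 7.71% and 16.1% with TGFβ, IL-1β and TNFα. Under the GC offset 0 of the 2 with TGFβ passed (1.16% of all genes), 2 of the 4 with IL-1β (Tlr2, Ly96; 4.26%) and 4 of the 5 with TNFα (all but Ly96; 12%). With block and offset together 1 passed with TGFβ (Tlr4; 3.32%), 6 with IL-1β (the 4 above, Tlr5 and Cd14; 12.5%) and 6 with TNFα (the 5 above and Tlr5; 21.4%). In the direct comparison of IL-1β with TNFα in LacZ, Cd14 was called higher and Tlr1, Tlr2, Tlr3 and Myd88 lower with IL-1β, against 9.62% of all genes, 4.84% higher and 4.78% lower. Raw library sizes gave 0 higher and 4 lower, beside 925 and 1461 of all 25210 genes.

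The groups with the highest means differed by gene. Tlr1, Tlr2, Tlr3 and Myd88 were highest in LacZ with TNFα, of which Tlr2 and Myd88 were apart from the next group, LacZ with IL-1β. Tlr3 overlapped that group, and Tlr1 overlapped LacZ with bFGF. Cd14, Tlr5 and Ly96 were highest in LacZ with IL-1β, of which only Cd14 was apart from the next group. Tlr4 was highest in iCre with bFGF, Tlr6 in LacZ CTRL and Ticam1 in iCre CTRL, each overlapping the next. The lowest group was iCre with TGFβ for Tlr1, Tlr3, Tlr4, Tlr5 and Ly96, and it was apart from the group above it for Tlr3, Tlr4 and Ly96. Tlr2, Cd14 and Myd88 were lowest in LacZ with TGFβ, Tlr6 in iCre with TNFα and Ticam1 in LacZ with bFGF.

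The other Toll-like receptor genes were at low levels. Of 7 (Tlr7, Tlr8, Tlr9, Tlr11, Tlr12, Tlr13 and Cd180), 6 were tested, with group means of at most 4.23 CPM (Cd180 in LacZ with TNFα), and Tlr11 was at 0 in all groups. In edgeR 0 passed with IL-1β or TNFα in LacZ (20.7% and 21.3% of all genes), while Cd180 with TNFα had an unadjusted p under 0.05 (1.40, adjusted p = 0.115) and was called by DESeq2. Tlr8, an endosomal receptor for single-stranded RNA, was lower in iCre with IL-1β (-1.76, adjusted p = 0.0358) and TNFα (-1.64, adjusted p = 0.0427), and Tlr7, of the same class, with TNFα (-1.51, adjusted p = 0.0379), which makes 1 and 2 of the 6 called lower beside 8.98% and 12.6% of all genes. With the GC offset these were not called (adjusted p = 0.157, 0.147 and 0.123). These receptors are typical of leukocytes. The summed macrophage markers had medians with IL-1β of 107 CPM (LacZ) and 76.1 CPM (iCre), and 88.0 and 83.0 CPM with TNFα, and their part in these values was not tested.

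Among 6 co-receptors and trafficking factors, LacZ fibroblasts had 3 called higher with IL-1β and 2 with TNFα, beside 11.1% and 10.9% of all genes. TGFβ raised 1 and lowered 2 (17.5% and 19.3% of all genes), and with bFGF 0 passed in edgeR or DESeq2, with 3 at an unadjusted p under 0.05. Of all 25210 genes with bFGF, 6443 had an unadjusted p under 0.05, and DESeq2 called 2515 higher and 2157 lower. Lbp, whose product carries lipopolysaccharide to CD14, went from 47.8 CPM in LacZ CTRL to 414 CPM with IL-1β (3.12, SE 0.12, adjusted p = 4.43e-07) and 376 CPM with TNFα (2.98, SE 0.10, adjusted p = 3.02e-07). In iCre it was at 109 and 21.4 CPM (against LacZ -1.94, adjusted p = 0.001, and -4.11, adjusted p = 0.000296). Unc93b1, which moves endosomal receptors such as TLR3 to their compartment, rose with both cytokines (0.79 and 1.01, adjusted p = 0.022 and 0.00499) and was lower in iCre with both (-0.63 and -1.02, adjusted p = 0.0157 and 0.000606). Cnpy3, a folding factor of surface Toll-like receptors, rose with IL-1β in LacZ (0.42, adjusted p = 0.046) and was higher in iCre with TNFα (0.38, adjusted p = 0.0223), but neither passed with the GC offset (adjusted p = 0.0534 and 0.687). Ly86, which encodes a partner of CD180, was lower in iCre with TNFα (-1.45, adjusted p = 0.0388) at group means under 0.7 CPM.

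Of 12 adaptors and proximal signal proteins, LacZ fibroblasts had 4 that rose with IL-1β and 3 with TNFα, beside 11.1% and 10.9% of all genes, and none that fell with these. More were called with TGFβ, 4 higher and 3 lower (17.5% and 19.3% of all genes), and bFGF raised 1 and lowered 2 (7.0% and 4.64%). Traf3, a ubiquitin ligase of the TRIF and TNF receptor pathways, rose with IL-1β (1.15, adjusted p = 0.000134) and TNFα (1.46, adjusted p = 1.63e-05) and did not differ between the viruses by the test (-0.26 with SE 0.16, and 0.05 with SE 0.11). Irak3, an inhibitor of the pathway, rose too (0.86 and 0.61, adjusted p = 0.0173 and 0.0366) and was lower in iCre (-1.38 and -2.17, adjusted p = 0.00306 and 0.000809). The kinase gene Irak1 rose by 0.31 and 0.32 (adjusted p = 0.0159 and 0.0143) and was higher in iCre with TNFα (0.36, adjusted p = 0.0123; with the GC offset 0.14, adjusted p = 0.255), and Irak2 rose with IL-1β (0.82, adjusted p = 0.00222). Traf6, the ubiquitin ligase upstream of TAK1, was lower in iCre with TNFα (-0.39, adjusted p = 0.0119).

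Of 8 proteins described as endogenous ligands, 7 were tested. In LacZ, 4 rose with IL-1β, 4 with TGFβ, 2 with TNFα and 2 with bFGF (11.1%, 17.5%, 10.9% and 7.0% of all genes), and 1 fell with TNFα (10.4% of all genes). The median log2 fold change over the 7 was 0.71 with IL-1β, 1.19 with TGFβ, 0.26 with TNFα and 0.55 with bFGF. Saa3, an acute-phase protein described as a TLR4 ligand, went from 3.81 CPM in LacZ CTRL to 4470 CPM with IL-1β (10.23, SE 0.58, adjusted p = 4.57e-06) and 1280 CPM with TNFα (8.41, SE 0.66, adjusted p = 3.5e-05). In iCre it was at 202 and 14.2 CPM, lower than LacZ by -4.48 (adjusted p = 3.1e-05) and -6.46 (adjusted p = 9.91e-05). The matrix proteoglycan gene Vcan rose with IL-1β (1.34, adjusted p = 0.0129), the chaperonin gene Hspd1 rose with both cytokines (0.56 and 0.55, adjusted p = 0.00183 and 0.00166) and was higher in iCre with TNFα (0.52, adjusted p = 0.0243). S100a8 rose with IL-1β from 0.00993 to a mean of 0.793 CPM (adjusted p = 0.000411). Hmgb1, a chromatin protein released by dying cells, fell with TNFα in LacZ (-0.26, adjusted p = 0.0214) and was higher in iCre with IL-1β (0.30, adjusted p = 0.0488) and TNFα (0.93, adjusted p = 0.000384).

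Genes whose mean log2 CPM over the 10 groups was most like that of Tlr2, among 13089 genes with at least 1 CPM on average, were Cfb (Pearson r = 0.986), Neurl3 (0.976) and Nrp2 (0.971). For Tlr4 they were Kitl (0.986), Dpy19l3 (0.982) and Ubl3 (0.964), and for Cd14 they were Fth1 (0.979), Cntnap1 (0.961) and Galk2 (0.958). These are descriptions over 10 group means from the same 40 libraries. Cfb encodes complement factor B, and its group mean was 53.2 CPM in LacZ with TNFα, 29.7 CPM with IL-1β and 2.69 CPM in CTRL. Among the 10 genes, the pattern of Tlr2 was most like those of Tlr5 and Myd88, each with r = 0.89.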

How the data were processed

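RNA was sequenced from 40 libraries in 10 groups of virus by ligand, 4 per group, mapped to groups by their titles. The study describes the replicates as biological replicates from male mice, while the labels do not say what a replicate is, so p-values measure the spread between these samples. Reads were single-end. Per the submitters' processing notes and the study's methods, the authors checked reads with FastQC (the notes and the methods give different versions), aligned them with STAR to mm10 and counted them per gene with HTSeq 0.10.0, and deposited the raw counts. The strand setting and annotation release are not given in the sources used here, and the study and the labels name different library kits. No other column of values was used.

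Positions, exon lengths and GC content came from GENCODE M21 (GRCm38), which held 52133 of 55414 gene identifiers and 99.59% of counts. Library totals were 25360947 to 66160732 (median 36183962). Genes with at least 10 counts over the 40 libraries (25210) were tested with edgeR 4.0.16 in R 4.3.3 (TMM, quasi-likelihood test) on the 8 libraries of each comparison or the 16 of each interaction, with Benjamini-Hochberg adjustment over all genes and a threshold of 0.05. The script was tested on simulated data. Alternatives were DESeq2 1.42.0, other scalings and filters, each replicate number left out, the replicate number as a block, a GC offset (24970 genes) and all 40 libraries together. Same-numbered libraries deviated together (correlations of 0.335 to 0.863 over 11849 genes in all compared pairs), so the numbers pair the samples, although the labels do not say what a number shares. Named genes were the 10 members and those of 33 pathway genes that passed with IL-1β or TNFα in LacZ against CTRL or in iCre against LacZ. Members and lists were chosen with earlier results of these data known.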

Additional observations from a re-analysis of the deposited data

Results flagged for a closer look

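In 11 of 100 sets of 4 libraries, 1 library stood apart from its group by Dixon's test, where chance gives about 5 for independent, normal sets. The sets held CPM that were not logged and came from the same 40 libraries, so 11 beside 5 does not measure an excess. All 11 were the highest of their group, and 6 were replicate 2. For Tlr1 they were LacZ CTRL replicate 4 at 2.21 CPM, iCre with bFGF replicate 1 at 2.75 CPM and iCre with TNFα replicate 1 at 2.11 CPM. For Tlr3 it was LacZ with bFGF replicate 4 at 64.1 CPM, and for Tlr5 iCre with TGFβ replicate 3 at 0.899 CPM. For Cd14 they were replicate 2 of LacZ with bFGF at 10.8 CPM and of LacZ with TNFα at 15.8 CPM. For Myd88 they were replicate 2 of LacZ CTRL at 45.9 CPM, LacZ with TGFβ at 43.8 CPM, iCre with bFGF at 42.3 CPM and iCre with TGFβ at 55.7 CPM.

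The effect of a ligand differed between iCre and LacZ in 11 interaction tests of edgeR, with log2 values and adjusted p as follows. With TGFβ, Tlr4 was at -1.44 (adjusted p = 0.000913) and Ly96 at -1.10 (0.0141). With IL-1β, Tlr2 was at -2.66 (1.53e-05), Tlr3 at -1.62 (0.00863), Tlr4 at -1.18 (0.00193) and Ly96 at -1.37 (0.00728). With TNFα, Tlr2 was at -3.64 (5.67e-05), Tlr3 at -2.17 (0.00152), Tlr4 at -1.22 (0.000631), Ly96 at -1.10 (0.0153) and Myd88 at -0.64 (0.00311).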

How the results depend on the processing

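Of 180 tests of the 10 genes, 69 passed, none of these changed sign under any of the 13 alternatives and 37 passed under every one, 10 of them for Tlr2. Of the 111 that did not pass, 31 changed sign under an alternative. DESeq2, RLE scaling, filterByExpr and the replicate block kept all 69 calls, no filter 68, all 40 libraries 66, the block with the GC offset 64, raw library sizes 62 and the GC offset 52. Without replicate 1, 2, 3 or 4 the calls kept were 48, 67, 42 and 49. The replicate block changed no call other than those given beside the results. Counts of genes called moved as follows, and the cause was not tested. In iCre with bFGF (0), DESeq2 called 3, the block 6, the block with GC offset 6 and all 40 libraries 1. Of all 25210 genes DESeq2 called 1138 higher and 860 lower there, and all 40 libraries 1032 and 490. The shares with the block and with block and offset were 16.7% and 16.3%. In iCre with TNFα (2), DESeq2 called 5, the block 5, raw library sizes 4 and all 40 libraries 5. Over all genes DESeq2 called 4074 higher and 4007 lower there, raw library sizes 2685 and 3995, all 40 libraries 4059 and 3976, and the block 36.1%. For iCre against LacZ in CTRL (0), DESeq2 called 1 (751 genes higher and 595 lower), the block 2 (14.5% of all genes) and the block with GC offset 2 (14.4%). With bFGF (0) both blocked fits called 1 (13.9% and 13.6%). With the GC offset the counts were 2 in iCre with IL-1β (6), 0 for iCre against LacZ with TGFβ (3), 0 for the TGFβ interaction (2; 1 with the block) and 2 for the IL-1β interaction (4). The shares of all genes with the offset alone were 9.69%, 1.29%, 1.16% and 4.26% in that order. Raw library sizes called 8 in LacZ with TGFβ (5), all lower, beside 8451 of all 25210 genes called lower. They moved the median of all genes there from -0.17 to -0.571. Leaving out each replicate gave 0 to 5 in LacZ with bFGF, 5 to 8 with TGFβ, 4 to 9 with IL-1β and 3 to 8 with TNFα. In iCre the ranges were 0 to 3 with bFGF, 6 to 6 with TGFβ, 2 to 6 with IL-1β and 2 to 3 with TNFα. For iCre against LacZ they were 1 to 3 with TGFβ, 4 to 6 with IL-1β and 5 to 7 with TNFα, for the interactions 1 to 2, 2 to 5 and 4 to 6, and for IL-1β against TNFα 3 to 6. The share of all genes called moved with these counts, from 1.32% to 18.2% in LacZ with bFGF, 25.9% to 37.1% with TGFβ, 9.22% to 23.4% with IL-1β and 10.5% to 23.5% with TNFα, in iCre from 0.0% to 12.7%, 27.0% to 40.0%, 6.85% to 18.1% and 14% to 25.4%, and for iCre against LacZ from 2.01% to 12.5% with TGFβ, 6.18% to 16.6% with IL-1β and 13% to 27.1% with TNFα. For the interactions it moved from 1.28% to 5.27%, 2.37% to 6.85% and 5.39% to 15.4%. For IL-1β against TNFα it moved from 3.68% to 12.7%. Tlr1 rested on 1 to 127 reads per library and Tlr5 on 10 to 144, and the effect of this depth on their calls was not tested.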
